A study of Mus musculus with 8 samples.

Results

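The semaphorins, plexins and neuropilins are a ligand and receptor system first known from axon guidance. They were taken as the rows of the deposited gene table named as a Sema gene of a numbered and lettered class, as Plxna to Plxnd with a number, or as Nrp1 or Nrp2. The rule gave 31 of 23997 genes: 20 semaphorins, 9 plexins and 2 neuropilins. It used names alone and no measured value. RNA sequencing had been done on marginal zone B cells (MZBs), the splenic B cells that lie along the marginal sinus and meet blood-borne antigen early, of C57BL/6 mice. The labels assign 4 libraries to an ACKR3+ genotype and 4 to an ACKR3- genotype, and the titles call the same groups GFP positive and GFP negative. ACKR3 is an atypical receptor that binds and removes the chemokine CXCL12. No treatment, age, sex or reporter construct is given in the labels.

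Values were read per condition and not per mouse. The table holds 1 estimated fragment count and 1 variance per gene for each of 2 conditions, q2 and q1. No label ties q2 or q1 to ACKR3+ or ACKR3- cells, so values carry the column's name and nothing is said of a direction with ACKR3. Ackr3 itself had 149 ± 23.7 fragments in q2 and 1030 ± 100.1 in q1, and its level was not used to name the columns. In each such pair, the value after ± is the SD from the deposited variance. With 1 value per condition there is no replicate check, no test and no p-value. The columns summed to 16653774 fragments in q2 and 16877559 in q1. Log2 ratios are q2 over q1 after adding a pseudocount of 1, so a negative ratio means more fragments in q1. They are given where the higher of the 2 columns held 100 fragments or more, which 9582 genes reached, with a median log2 ratio of 0.00053. Sema6d, Sema4a, Nrp1 and Plxna1, below that minimum, are exceptions, with ratios given beside their intervals or SDs. These are bulk samples, in which fewer cells of a type and less RNA per cell cannot be told apart.

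Semaphorins carry an extracellular sema domain and are secreted (class 3 in vertebrates), membrane-spanning (classes 4, 5 and 6) or held by a lipid anchor (class 7). Most bind plexins, whose intracellular domain inactivates small GTPases of the Rap and R-Ras type and thereby loosens integrin adhesion and the actin network. Class 3 semaphorins mostly need a neuropilin as co-receptor, and neuropilins also bind vascular growth factors. In the immune system, Sema4d (CD100), Sema4a and Sema7a are the best known members, and Sema4d also acts on B cells through CD72.

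A few members made up nearly all of the signal. Plxnc1, Plxnd1, Sema4b, Sema4d and Sema7a together held 91.8% of all member fragments in q2 and 91.7% in q1. All 31 members summed to 26561 fragments in q2, or 0.159% of the column, and to 34756 in q1, or 0.206%. Of the 31, 10 members reached the minimum of 100 fragments, namely 5 of 20 semaphorins, 4 of 9 plexins and 1 of 2 neuropilins. Of the other 21, 4 had between 20 and 100 fragments in the higher column, 5 had between 3 and 20, and 12 had fewer than 3 in both. The members nearest the minimum were Sema6b, inside it with 94.1 fragments in q2 and 133 in q1, and Plxna1, outside it with 81.3 in q2 and 98.3 in q1.

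**Figure D1:**
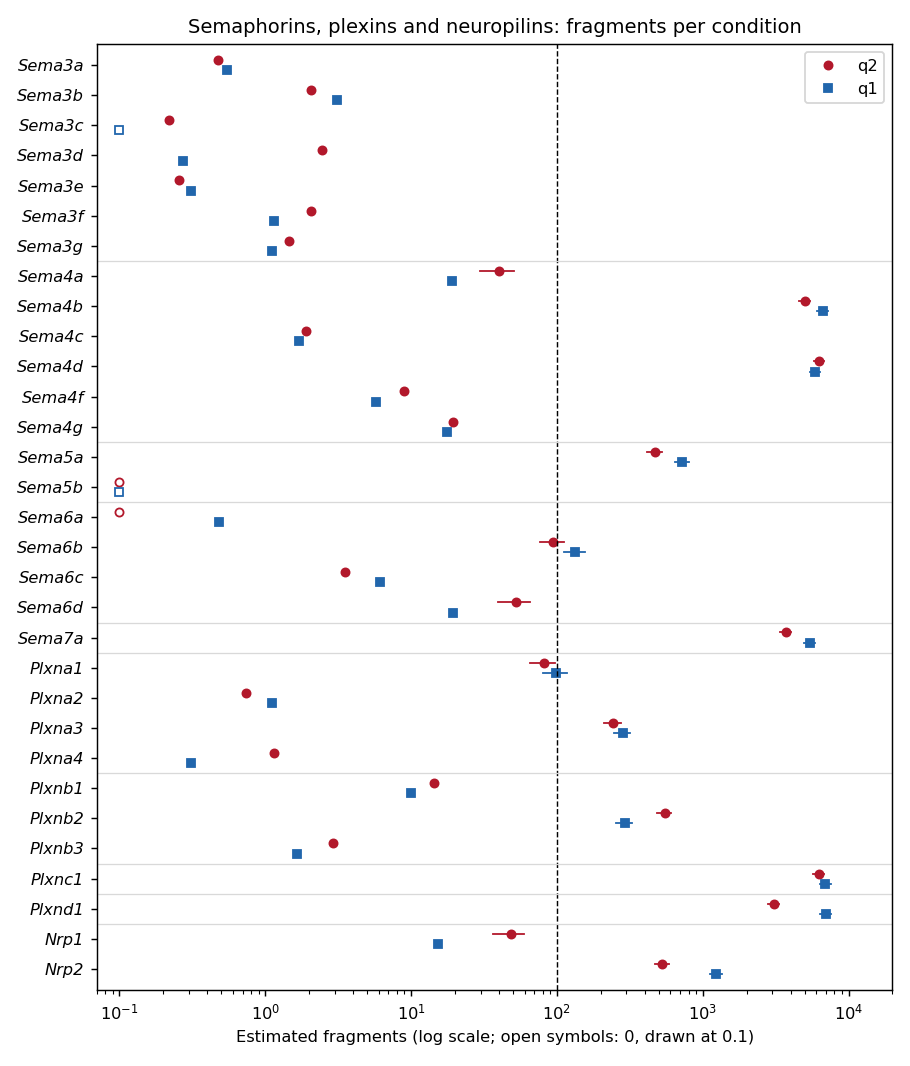
Estimated fragments (log axis) of all 31 members, ordered by class, with q2 as red circles above q1 as blue squares. Horizontal lines are ± 1 deposited SD for values of at least 20 fragments, open symbols are values of 0, and the dashed line is the minimum of 100 fragments; class 3 members lie at the far left in both columns, and Nrp2 and Plxnd1 lie farther right in q1.

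Of the 10 members past the minimum, 2 were higher in q2 and 8 in q1, where 50.2% of all genes past the minimum were higher in q2 and 49.8% in q1. Of the 8, Sema6b passed the minimum through q1 alone. Plxna3 and Plxnc1 of the 8, and Sema4d of the 2, differed by less than 1 deposited SD. The median log2 ratio of the 10 members was -0.45. By a size rule of at least 2-fold, 0 members were higher in q2, where 1.84% of all genes met the rule, and 2 members (Nrp2 and Plxnd1) were higher in q1, where 0.438% did. With over 2 deposited SD also required, the counts were again 0 in q2, against 1.77% of all genes, and 2 in q1, against 0.407%. With a minimum of 500 fragments they were 0 of 8 members in q2, against 0.631%, and 2 of 8 in q1, against 0.226%. At 1.5-fold, Plxnb2 was the member higher in q2 (1 of 10, against 3.39% of all genes), and Sema5a joined Nrp2 and Plxnd1 in q1 (3 of 10, against 1.58%). In all, 6 members were over 2 deposited SD apart, 1 of them toward q2 and 5 toward q1, against 4.15% and 2.11% of all genes in those directions. These shares stand side by side as a description of these 2 columns, and members that share a pathway are not independent of each other.

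**Figure D2:**
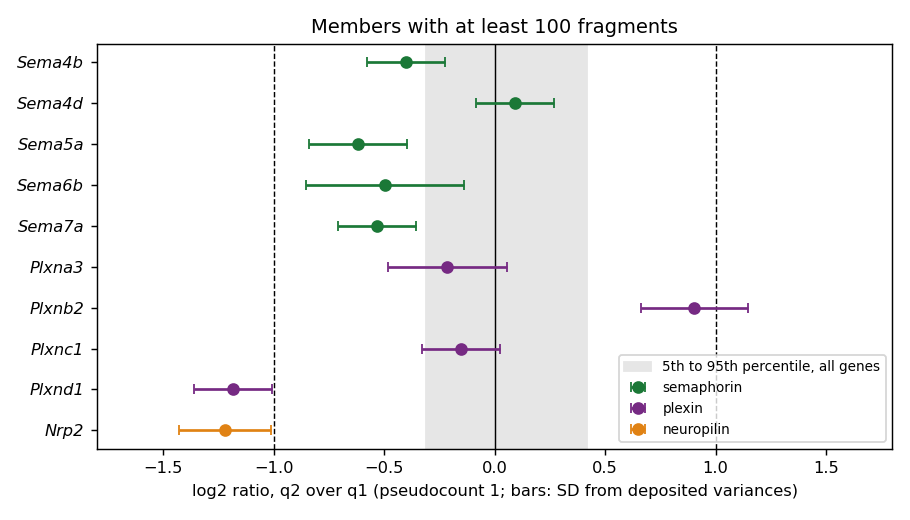
Log2 ratio of q2 over q1 for the 10 members past the minimum, with bars of ± 1 SD from the deposited variances. The grey band spans the 5th to 95th percentile of all 9582 genes (-0.31 to 0.42) and the dashed lines mark 2-fold; Nrp2 and Plxnd1 lie past the left line, and Plxnb2 lies just inside the right one.

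Among the receptors, plexin D1 differed most in fragments. Plxnd1, the receptor for Sema3e in mouse vessel patterning and thymocyte migration, had 3072 ± 268 fragments in q2 and 6980 ± 610 in q1. Its log2 ratio was -1.18 ± 0.18, a 2.27-fold difference. It stood 30th of 9582 genes in order of the ratio toward q1. Taken after its value was seen, 365 genes had at least as many fragments in q1 as Plxnd1, counting Plxnd1 itself, and 0 of them had a lower ratio. Plexin C1 was close to plexin D1 in q1 and above it in q2: Plxnc1, the receptor for Sema7a, had 6251 ± 541 fragments in q2 and 6939 ± 602 in q1, at -0.15 ± 0.18. The ratio of Plxnd1 to Plxnc1, both set per kilobase of the longest annotated transcript, was therefore 0.52 in q2 and 1.06 in q1.

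Plexin B2 was the receptor that stood on the other side. Plxnb2, a receptor for class 4 semaphorins, had 548 ± 60.0 fragments in q2 and 293 ± 37.3 in q1. Its log2 ratio was 0.90 ± 0.24, a 1.87-fold difference just under the 2-fold rule, and it stood 201st of 9582 genes in order of the ratio toward q2. Plxna3, which transmits class 3 signals together with neuropilins, had 243 ± 32.9 fragments in q2 and 282 ± 36.4 in q1, at -0.21 ± 0.27, a difference smaller than its SD. The remaining plexins were scarce. Plxna1 was the most abundant of them. Plxnb1, the high-affinity receptor for Sema4d, had 14.3 fragments in q2 and 10.02 in q1, and Plxna2, Plxna4 and Plxnb3 had between 0.31 and 2.92 in either column.

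The neuropilins had their higher counts in opposite columns. Nrp2, a co-receptor for Sema3f and for the lymphatic growth factor VEGF-C, had 529 ± 58.2 fragments in q2 and 1233 ± 115 in q1. Its log2 ratio of -1.22 ± 0.21, or 2.33-fold, was the lowest of the 10 members and stood 25th of 9582 genes in order of the ratio toward q1. Nrp1, a co-receptor for Sema3a and VEGF-A that also marks plasmacytoid dendritic cells and thymus-derived regulatory T cells, lay below the minimum, with 48.1 ± 11.7 fragments in q2 and 15.4 ± 5.57 in q1. Per kilobase, the Nrp2 level was 5.97 times that of Nrp1 in q2 and 43.4 times in q1.

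The promoters of the 2 members with the lowest log2 ratios and of the member with the highest are shown because these genes had the largest ratios of the family in each direction. They are RefSeq windows on GRCm38.p6 from 250 bases before to 50 after the annotated start, written 5′ to 3′ on the gene's strand. The windows are chr6:115994956-115995255 on the minus strand for Plxnd1, chr1:62703067-62703366 on the plus strand for Nrp2 and chr15:89180739-89181038 on the minus strand for the upstream of 2 annotated starts of Plxnb2. Capitals mark matches, on either strand, to the GC box GGGCGG, to the RBPJ core TGGGAA bound by the Notch effector, and to GGGCGTGG, a motif of the Krüppel-like factor type that was chosen after the sequences had been read.
Plxnd1: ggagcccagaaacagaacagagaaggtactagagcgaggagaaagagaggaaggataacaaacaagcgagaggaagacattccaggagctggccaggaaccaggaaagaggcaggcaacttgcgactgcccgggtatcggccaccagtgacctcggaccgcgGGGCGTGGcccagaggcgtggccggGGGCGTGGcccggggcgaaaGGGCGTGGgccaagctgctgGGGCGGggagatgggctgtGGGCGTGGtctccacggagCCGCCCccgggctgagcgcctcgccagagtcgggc
Nrp2: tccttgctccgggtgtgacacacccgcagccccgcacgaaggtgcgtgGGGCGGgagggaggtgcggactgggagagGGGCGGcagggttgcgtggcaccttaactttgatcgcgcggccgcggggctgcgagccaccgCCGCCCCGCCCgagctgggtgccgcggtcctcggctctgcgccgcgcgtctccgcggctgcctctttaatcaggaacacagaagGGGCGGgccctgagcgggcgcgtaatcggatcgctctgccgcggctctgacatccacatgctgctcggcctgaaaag
Plxnb2: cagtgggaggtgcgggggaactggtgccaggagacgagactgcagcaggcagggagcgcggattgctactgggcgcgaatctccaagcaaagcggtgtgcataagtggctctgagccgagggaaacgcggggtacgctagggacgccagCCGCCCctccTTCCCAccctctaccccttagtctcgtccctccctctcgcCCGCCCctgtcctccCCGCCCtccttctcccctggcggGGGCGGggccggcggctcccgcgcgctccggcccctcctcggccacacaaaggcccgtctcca
The Plxnd1 window held 4 copies of GGGCGTGG and 2 of GGGCGG. At least 1 copy of GGGCGTGG was present in 5.33% of the 32851 windows in the RefSeq table, and 11 windows held at least 4. The Nrp2 window held 5 matches to GGGCGG, of which 2 overlap each other, and the Plxnb2 window held 4. At least 1 match was present in 35.7% of windows, at least 4 in 5.49% and at least 5 in 2.71%. The Plxnd1, Nrp2 and Plxnb2 windows held 23, 37 and 27 copies of CG, where the median over all windows was 7. TGGGAA was matched once in the Plxnb2 window shown and was not matched in the Plxnd1 and Nrp2 windows, where 25.6% of all windows had a match. No base was shared between matches to different motifs. The matches describe letters in these windows, and no binding data were used here.

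**Figure D3:**
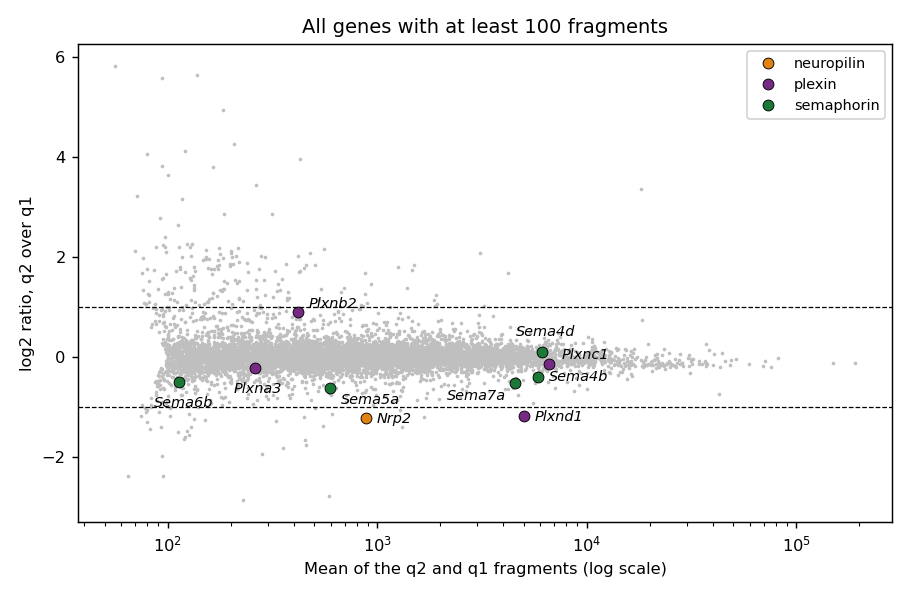
Log2 ratio of q2 over q1 against the mean of the q2 and q1 fragments (log axis) for the 9582 genes past the minimum in grey, with the 10 members coloured by family and dashed lines at 2-fold. Plxnd1 lies below the lower line at a fragment count where few other genes leave the central band, and the abundant members Sema4d and Plxnc1 lie inside that band.

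The membrane-bound semaphorins were the abundant ligands. Sema4d, which engages CD72 on B cells, had 6294 ± 542 fragments in q2 and 5908 ± 508 in q1, at 0.091 ± 0.18, a difference smaller than its SD. Sema4b, a membrane-spanning relative of Sema4d, had 5039 ± 433 fragments in q2 and 6656 ± 576 in q1, at -0.40 ± 0.18. Per kilobase, Sema4d stood at 1404 fragments and Sema4b at 1276 in q2, against 1318 and 1685 in q1. By these values Sema4d was at 1.10 times the level of Sema4b in q2 and 0.78 times in q1. The deposited SDs in q2 were 8.6% of each count, so the ranges of ± 1 SD of the pair overlapped in that column. The order also rests on dividing by the longest annotated transcript of each gene.

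Sema7a was higher in q1. This lipid-anchored ligand of plexin C1 and of beta-1 integrins had 3735 ± 323 fragments in q2 and 5403 ± 468 in q1, at -0.53 ± 0.18, or 1.45-fold. Of all genes past the minimum, 5.57% were at least as far apart in either direction. Its level per kilobase was 1133 in q2 and 1639 in q1, which is 1.32 times that of its receptor Plxnc1 in q2 and 1.72 times in q1. Both partners of this pair were thus abundant in both columns.

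Among the less abundant ligands past the minimum, both were higher in q1. Sema5a, a membrane-spanning guidance cue with thrombospondin repeats, had 472 ± 53.9 fragments in q2 and 725 ± 74.6 in q1, at -0.62 ± 0.22, or 1.54-fold. Sema6b, known as a ligand of class A plexins in mouse axon guidance, stood at -0.49 ± 0.36. Per kilobase, Sema5a stood at 43.6 in q2 and 67.0 in q1, and Sema6b at 25.2 in q2 and 35.6 in q1. Ordered by that level from the highest, Sema5a was 8907th in q2 and 8220th in q1, and Sema6b 9329th in q2 and 9020th in q1, of the 9529 genes past the minimum with an annotated length.

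The secreted class 3 semaphorins were close to the detection limit in both columns. All 7 summed to 8.97 fragments in q2 and 6.49 in q1, each with at most 3.10 in either column. Sema3e, the ligand of plexin D1, had 0.26 fragments in q2 and 0.31 in q1. Sema3f, the ligand of Nrp2, had 2.06 in q2 and 1.15 in q1. These counts are at or near the floor of 3 fragments that a value of 0 allows, so no ratio is given. Sema5b was listed at 0 in both columns and Sema6a at 0 in q2 and 0.48 in q1.

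Of the 4 members with between 20 and 100 fragments, Sema6d, Sema4a and Nrp1 had more fragments in q2 and Plxna1 had more in q1. Sema6d, a membrane-spanning ligand of plexin A1, had 52.6 fragments in q2 and 19.5 in q1, a ratio of 2.69 with an exact (Clopper-Pearson) 95% interval of 1.56 to 4.68. Sema4a, a class 4 semaphorin of dendritic cells and activated lymphocytes that can also bind plexin D1, had 40.3 in q2 and 19.1 in q1, a ratio of 2.11 with an interval of 1.19 to 3.85. For Nrp1 the ratio was 3.12 with an interval of 1.76 to 6.15, and for Plxna1 it was 0.83 with an interval of 0.61 to 1.12. With the pseudocount and the deposited variances, which are wider than counting error, the log2 ratios were 1.38 ± 0.60 for Sema6d, 1.04 ± 0.59 for Sema4a and 1.58 ± 0.60 for Nrp1, so that Sema4a was under 2 SD apart. Such an interval holds for counting error alone, with the estimated fragments rounded to whole ones. It takes the deposited values as raw counts, although their scaling is not stated. When the minimum was lowered to 20 fragments, 3 of 14 members (Sema6d, Sema4a and Nrp1) were at least 2-fold higher in q2, where 3.1% of all genes were. Each of the 3 had under 20 fragments in q1, so the lower minimum admitted them only through the column where they were higher. At that minimum, 2 of 14 members were at least 2-fold higher in q1, where 0.914% of all genes were. Of the rest, Sema4g had 19.3 fragments in q2 and 17.7 in q1, Sema4f 9.01 in q2 and 5.77 in q1, Sema6c 3.55 in q2 and 6.17 in q1, and Sema4c, a ligand of plexin B2, 1.90 in q2 and 1.71 in q1.

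Most genes that work with the family had ratios near that of the median gene. Of 6 other receptors and co-receptors past the minimum, 4 were higher in q2 and 2 in q1, 0 by 2-fold, with a median of 0.16. Cd72, the B cell receptor for Sema4d, had 7190 fragments in q2 and 6051 in q1, at 0.25 ± 0.19. Itgb1, the integrin chain used by Sema7a, had 1520 in q2 and 1612 in q1, at -0.085 ± 0.18, and Itgav, an integrin alpha chain, stood at 0.092 ± 0.19. Cd44, an adhesion receptor for hyaluronan, stood at 0.24 ± 0.18. L1cam, an adhesion molecule that associates with neuropilin-1 in neurons, had 117 in q2 and 59.3 in q1, at 0.97 ± 0.40. The classical partners of B plexins in epithelia, Met, Mst1r and Erbb2, had at most 2.19 fragments in either column, and Trem2, a partner of plexin A1 in myeloid cells, at most 0.24. Tyrobp, the adaptor of Trem2 that other myeloid and NK cell receptors also use, had 546 fragments in q2 and 757 in q1, at -0.47 ± 0.21, the lowest ratio of the list.

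The GTPases and exchange factors under plexins gave a median of 0.025, with 6 of 12 genes past the minimum higher in q2 and 6 in q1. Rac2, the Rac GTPase of blood cells, stood at -0.027 ± 0.19, Cdc42 at 0.13 ± 0.18 and Rhoa at 0.096 ± 0.18. Rap1b, a Rap GTPase inactivated by plexins, had 3769 fragments in q2 and 2991 in q1, at 0.33 ± 0.18, and its paralog Rap1a stood at 0.44 ± 0.18, the highest ratio of this list. Arhgef11 and Arhgef12, the exchange factors that join B plexins to RhoA, stood at -0.065 ± 0.22 and -0.16 ± 0.18. Kinases and cytoskeletal effectors had a median of 0.023, with 13 of 25 higher in q2 and 12 in q1. In that list the tyrosine kinases Syk, Lyn and Ptk2b stood at 0.029 ± 0.20, -0.045 ± 0.18 and 0.13 ± 0.18, and Cfl1, the actin-severing protein cofilin, at 0.11 ± 0.19. The largest ratios of the list were those of Dpysl2, a collapsin response mediator, at 0.57 ± 0.30, and of Mical3, an actin-oxidising enzyme of the Mical family that acts downstream of plexins in the fly, at -0.55 ± 0.19. Dpysl2, Mical3, Rap1a, Arhgef11, Arhgef12, Tyrobp and the scarce partner genes Met, Mst1r, Erbb2, Trem2, Vegfa and Vegfc were chosen after their values were seen.

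Of the 2 other neuropilin ligands past the minimum, Tgfb1 stood at 0.12 ± 0.18 and Vegfb, a vascular growth factor, at 0.26 ± 0.32. Vegfa and Vegfc, the growth factors most closely tied to neuropilins, had at most 5.84 and 0.31 fragments in either column. The 4 proteases past the minimum that shed or process these proteins had ratios between -0.22 and 0.014. Adam10 and Adam17, which release ectodomains from the cell surface, were nearly equal, and the convertase Furin had the lowest ratio of the 4. These 5 lists had 6, 12, 25, 2 and 4 genes past the minimum. Of them, 0 met the 2-fold rule, which 1.84% of all genes met toward q2 and 0.438% toward q1. The 1.5-fold rule was met by 1, L1cam, which passed the minimum through q2 alone. Of all genes, 3.39% met that rule toward q2 and 1.58% toward q1. With so few genes, these counts do not set the lists apart from all genes.

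**Figure D4:**
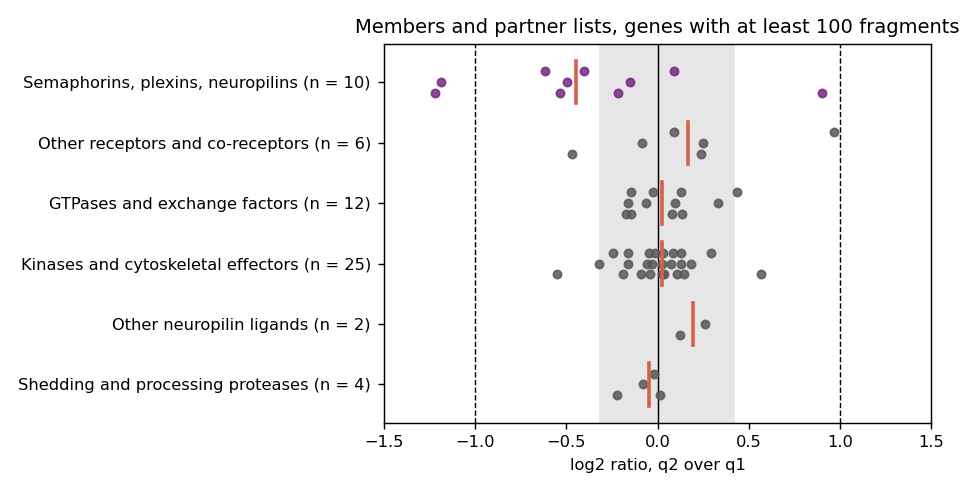
Log2 ratio of q2 over q1 for the 10 members in the top row and for the genes past the minimum in 5 partner lists, 1 point per gene, with medians as red lines. The grey band spans the 5th to 95th percentile of all genes and the dashed lines mark 2-fold; the members have points past the left line, and every partner list has its median between -0.05 and 0.19.

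Markers of B cell states and of other cells also differed between the columns, and their part in the ratios of the members was not tested. All 10 marginal zone markers were above the minimum, led by Cr2 with 70851 fragments in q2 and 81167 in q1. They were higher in q1 for 10 of 10 genes, with a median of -0.48 and none by 2-fold, so that Nrp2 and Plxnd1 had lower ratios than every gene of that list, whose lowest was -0.86. All 10 germinal center genes past the minimum were higher in q2, with a median of 4.03, on the same side as Plxnb2. Follicular genes had a median of 0.60 and plasma cell genes 1.56, also toward q2.

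Macrophage and monocyte markers past the minimum were higher in q1 for 7 of 9 genes, on the same side as Nrp2 and Plxnd1. Of these, 6 differed by at least 2-fold: Csf1r, Vcam1, Slc40a1, Hmox1, Axl and Spic. Each had under 100 fragments in q2, so it passed the minimum through q1 alone. Ly6c2 and Emr1, which passed through q2 alone, stood at 1.79 ± 0.38 and 0.76 ± 0.37. Lyz2, below the minimum, had 62.9 fragments in q2 and 63.5 in q1. Also below it, Cd14, Mertk, Cd163, Marco and Siglec1 had more fragments in q1, the most being 21.3 for Mertk against 6.57 in q2. Ccr2 had more in q2, with 16.6 against 8.41 in q1. The 16 markers of that list in the table summed to 1038 fragments in q2 and 1477 in q1, and none was at 0 in both columns. The difference of q2 minus q1 was -439 fragments for that sum, -704 for Nrp2 alone and -3908 for Plxnd1 alone. That sum is a net of markers that went either way, and these differences are not set per length. The part of such cells in the ratios of Nrp2 and Plxnd1 was not tested. T cell markers summed to 1456 in q2 and 1112 in q1, and dendritic cell markers, most of them from Tcf4 and Bcl11a, which B cells express as well, to 12970 in q2 and 13372 in q1. In that list Flt3 and Itgax, both expressed by conventional dendritic cells, stood at 0.94 ± 0.36 and 1.13 ± 0.36, toward q2. Both passed the minimum through q2 alone. Past the minimum in both columns, Bst2 stood at 0.014 ± 0.25, Tcf4 at -0.14 ± 0.18 and Bcl11a at -0.0037 ± 0.18. The remaining markers of that list were below the minimum and did not all lean toward q2. Zbtb46 had 18.1 fragments in q2 and 27.0 in q1, Xcr1 28.7 in q2 and 24.9 in q1, and Clec9a 2.13 in q2 and 2.16 in q1. Siglech, which marks plasmacytoid dendritic cells, had 5.11 fragments in q2 and 13.7 in q1. Endothelial markers other than Pecam1 were scarce, with Cdh5 at 61.5 in q2 and 79.9 in q1 and Kdr at 1.08 in q2 and 4.74 in q1. Neutrophil markers summed to 67.0 in q2 and 60.9 in q1, and platelet and erythroid markers to 86.2 in q2 and 82.1 in q1.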

How the data were processed

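Libraries were made from total RNA extracted with Trizol, using an Illumina TruSeq RNA kit, per the labels' protocols, for 8 libraries in 2 groups of 4. Per the submitters' processing notes, cutadapt 1.8.1, TopHat2 2.0.14 and Cuffdiff 2.2.1 were used with the mm10 build; for the annotation, strand setting, filters and scaling, the sources used here give nothing. The deposited file holds, per the file headers, an estimated count of fragments per gene and condition, pooled over libraries, with its variance and the parts of that variance. The column for the isoform assignment part was 0 for every gene, and whether a variance refers to 1 library or to a mean is not stated. The deposited counts were used as they stand, without rounding except in the exact intervals.

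Log2 ratios of q2 over q1 were computed for all genes with Python 3.11.15, numpy 2.4.6 and scipy 1.17.1, with a pseudocount of 1, which understates changes of low genes, a minimum of 100 fragments in the higher column and SDs taken to first order from the variances. Positions, lengths and GC content came from GENCODE M21 (GRCm38, the assembly of mm10), which matched 31 of 31 members and 23624 of 23997 genes; levels between genes are per kilobase of the longest transcript. Promoters came from RefSeq, for 10 of 10 members past the minimum. All members were reported. Partner genes were named where at least 1.5-fold apart, plus up to 4 per list with the most fragments; others are named in the text as chosen after their values were seen. The members, gene lists and rules were chosen with earlier results of these data known. The calculations were tested on simulated data. Alternatives were other minimums, pseudocounts, scalings, fold rules and a regression on GC content, length of the transcript and mean level.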

Additional observations from a re-analysis of the deposited data

How the results depend on the processing

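No paired analysis was possible because both columns are pooled over libraries and name no replicate, and no library could be set aside. The count of members at least 2-fold higher in q2 (0) became 1 with the 1.5-fold rule and 3 with a minimum of 20 fragments. At that minimum, Nrp1, Sema4a and Sema6d entered the comparison through q2 alone, and 3.1% of all genes met the rule. The count of members at least 2-fold higher in q1 (2) was the same with minimums of 20 and 500 fragments, pseudocounts of 0 and 10, both scalings, the regression on GC content, length and level, and a further requirement of 2 deposited SD; it was 3 with the 1.5-fold rule. The median log2 ratio of -0.45 lay at -0.24 with a minimum of 20, over 14 members, and between -0.47 and -0.39 under the other settings. None of the 10 members changed sign under the pseudocounts, scalings or regression. Of 50 recomputed ratios of single members, 46 stayed within their counting intervals, and the other 4 were values after that regression: -1.06 for Plxnd1, -0.32 for Sema4b, 0.15 for Sema4d and -0.45 for Sema7a. The 2 scalings moved ratios by at most 0.02, since both factors were near 1. The lack of values per library limits all of these differences, and fragments near 0 limit the class 3 semaphorins.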

Other observations

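The nearest genes past the minimum were read on each side of the members, chosen after the member values were seen. Snhg18, a noncoding RNA gene whose annotated span ends 0.148 kb before that of Sema5a begins, had 107 fragments in q2 and 171 in q1, a log2 ratio of -0.67 ± 0.34 beside the -0.62 of Sema5a. Mapk11, which encodes the kinase p38 beta and lies 5.92 kb from Plxnb2, had 515 fragments in q2 and 227 in q1, at 1.18 ± 0.25 beside the 0.90 of Plxnb2. On the other side of Plxnb2, Dennd6b, at a distance of 1.42 kb, stood at -0.14 ± 0.20. The neighbours of Plxnd1 did not share its ratio: Tmcc1, 23.6 kb away, stood at -0.040 ± 0.22, and Mbd4, a DNA glycosylase gene 101.4 kb away, at 0.37 ± 0.20. Nrp2 had no such gene within 100 kb, and Ino80d, 140 kb away, stood at -0.030 ± 0.18. Cep83, which adjoins the 3′ end of Plxnc1, stood at 0.15 ± 0.22 beside the -0.15 of Plxnc1. No gene of the table with fragments overlapped a member past the minimum in the annotation.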
